A study of Caenorhabditis elegans with 2 samples.

Results

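The binding of FKH-6 at forkhead genes, its own included, was examined in the nematode Caenorhabditis elegans. The 10 genes are fkh-6, pha-4, daf-16, let-381, lin-31, unc-130, pes-1, fkh-2, fkh-7 and fkh-8, chosen by name among 15 forkhead genes considered and 19973 nuclear protein-coding genes in all. FKH-6 tagged with GFP was recovered by chromatin immunoprecipitation with an anti-GFP antibody and sequenced (ChIP-seq), with 2 biological replicates of whole hermaphrodite late embryos taken 5.5 hours after synchronization by egg bleaching. Both replicates were of strain OP78, which carries the unc-119(ed3) mutation on chromosome III and the transgene wgIs78, whose product is FKH-6 with GFP and FLAG at its C-terminus. They form 1 group, so there is no test between conditions, and each locus is set beside all protein-coding genes as a description. The labels do not say which promoter drives the transgene, how much sequence beside fkh-6 it holds, or that the native fkh-6 is missing. Fragments from the native locus and from the transgene cannot be told apart in these data. In whole embryos, binding in few cells and weak binding in many cannot be told apart either. The region lists hold no expression values, so the stage was not checked against markers, and control libraries were not analysed here.

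Forkhead factors bind DNA through a winged-helix domain, and many of them prefer sites related to GTAAACA. In the worm, FKH-6 acts in the somatic gonad, PHA-4 specifies the pharynx, and DAF-16 is the FoxO factor at the end of the insulin pathway. LIN-31 acts in vulval induction below the MAP kinase, LET-381 in coelomocyte fate, and FKH-8 in ciliated sensory neurons.

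The locus of a gene is its body together with 5 kb on either side of its 5' end, and a region belongs to it when its summit lies inside. Signal is the authors' value for a region, of unstated scale, so it compares regions only within a list. Ranks count from 1 at the highest signal of a list, and since the lists differ in length a rank is not compared between them. The pooled list of both replicates held 26164 regions, replicate 1 alone 19624, replicate 2 alone 26209, and the authors' reproducible list 767. The pooled and replicate lists are labelled as holding background besides peaks, being the input to the reproducibility step, so a region in them is not by itself evidence of FKH-6 binding. The lists hold no read counts, so depth is unknown. Regions of the pooled list had a median width of 460 bp and could overlap, so a count of regions is not a count of separate sites. The reproducible regions are the 767 with the highest signal in the pooled list, from 89.1 upwards, and the highest-signal 10% of the pooled list, called strong here, begins at 60.5.

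The reproducible regions of the 10 loci lay mainly at fkh-6. Per 10 kb of locus there were 0.208 over the 10 genes and 0.0745 without fkh-6, against 0.0824 over all loci. Of the 10 genes, 2 had a reproducible region, fkh-6 with 2 regions and fkh-7 with 1, where 8.16% of all protein-coding genes had at least 1. At least 2 were found at fkh-6 alone of the 10, against 0.666% of all genes. Any pooled region was present at 10 of 10 forkhead genes and at 83.5% of all genes. In replicate 1 the same held for 10 of 10, against 80.5% of all genes, and in replicate 2 for 9 of 10, against 85.4%, so presence in a full list, background included, separates little. A region among the highest-signal 10% of the pooled list was present at 7 of 10, against 22.5% of all genes. In the replicates alone the same measure gave 5 of 10 in replicate 1, against 18% of all genes, and 7 of 10 in replicate 2, against 22.6%.

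The median forkhead locus had 6.5 pooled regions, against 2 for all genes. Its highest signal had a median of 67.7, against 42.2 for all genes. The same medians were 33.5 against 22.6 in replicate 1 and 40.1 against 24.9 in replicate 2. Locus length differs, since daf-16 and fkh-7 span 31206 and 30695 bp and the other 8 loci 10001 to 12266 bp. Per 10 kb of locus, the 10 genes together had 4.23 pooled regions, against 2.59 over all loci. The loci of pes-1, fkh-2 and fkh-8 had no region among the highest-signal 10% in any of the 3 lists.

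**Figure D1:**
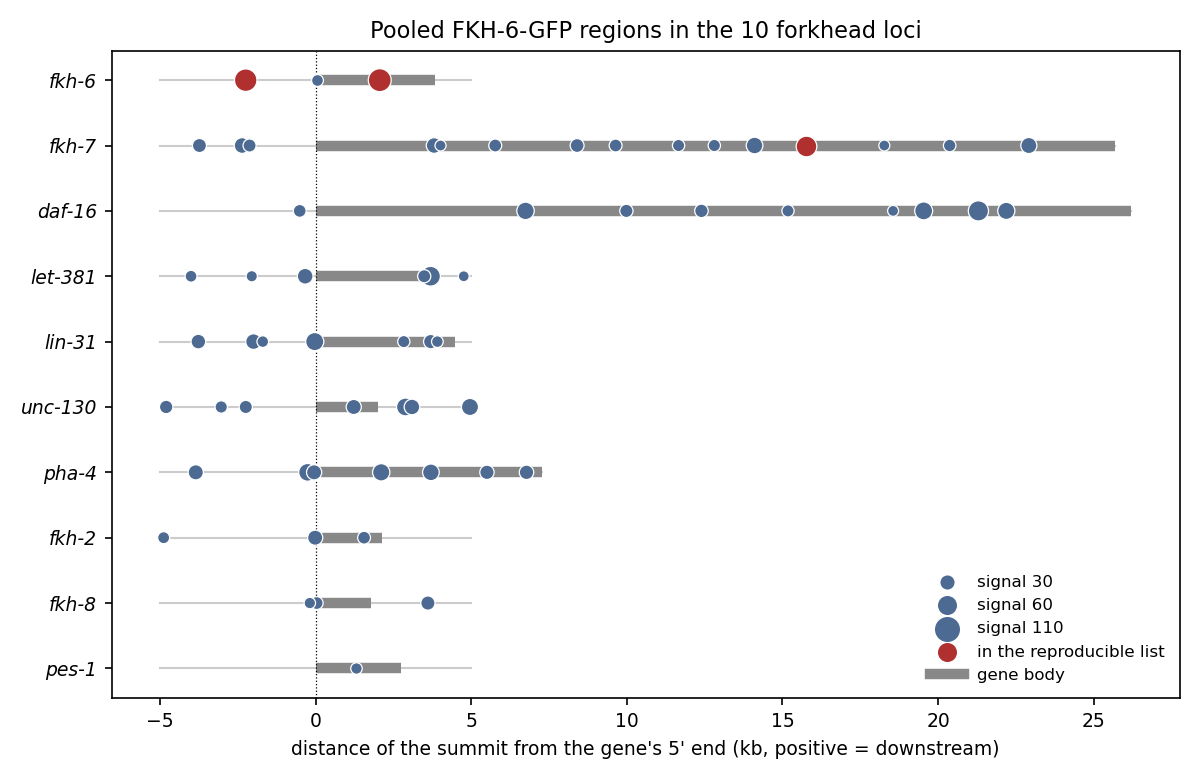
Pooled FKH-6-GFP regions in the 10 forkhead loci, ordered by their highest signal. The horizontal axis is the distance of each summit from the 5' end of the gene in kb, grey bars are gene bodies, circle area is proportional to signal, and red circles mark the 3 regions of the reproducible list, 2 at fkh-6 and 1 at fkh-7.

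The gene fkh-6 (WBGene00001438) lies on chromosome II, 4379585 to 4383406 in ce11, on the minus strand, wholly inside the span of B0286.1, which is transcribed from the other strand. Its highest-signal region had its summit 2059 bp inside the gene, in an intron of both genes, with a pooled signal of 110.1 and rank 436. The next had its summit 2248 bp upstream, in an intron of B0286.1, with a pooled signal of 106.1 and rank 483. The only other pooled region lay 31 bp past the start, in the 5' UTR, with a signal of 29.5 and rank 19048. The reproducible regions of fkh-6 therefore flanked its start on both sides at about equal distance, and the start itself held a weak region.

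Each replicate list was searched at both places. For the region inside fkh-6, replicate 1 had a summit at the same base with a signal of 75.2 and rank 167 of 19624, and replicate 2 had its nearest summit 93 bp away with a signal of 27.2 and rank 6346 of 26209. For the upstream region, replicate 1 again matched to the base, with a signal of 55.5 and rank 349, and replicate 2 had a summit 27 bp away with a signal of 34.3 and rank 2992. Replicate 2 put its stronger upstream summit 2071 bp from the start, with a signal of 57.7 and rank 577, and it had another summit 2355 bp inside the gene with a signal of 33.1 and rank 3350. When a replicate list was cut to its strongest 767 regions, fkh-6 had 2 in replicate 1. There, 2 of the 10 genes had any, fkh-6 and daf-16, against 8.06% of all genes. In replicate 2 it had 1, as the only forkhead gene of the 10 with any, against 8.31%. The upstream side was in this class in both replicates, and the intron of fkh-6 in replicate 1 alone.

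The sequences at these summits are shown because they carry the reproducible regions of the gene, in 101 bp centred on the summit, plus strand, from the RefSeq copy of WBcel235, which is ce11. Capitals mark the forkhead heptamers in the first and the hexamer CTACCT in the second.
fkh-6 intron, chrII:4381297-4381397: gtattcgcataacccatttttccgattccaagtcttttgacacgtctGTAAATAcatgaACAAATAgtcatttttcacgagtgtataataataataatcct
fkh-6 upstream, chrII:4385604-4385704: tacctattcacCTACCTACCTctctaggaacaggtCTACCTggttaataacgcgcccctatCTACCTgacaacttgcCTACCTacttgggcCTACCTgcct
The intron window is rich in A and T, with 31.7% GC, and holds the heptamers GTAAATA and ACAAATA at or just beside the summit. Any of the forkhead heptamers was in 14.4% of all pooled nuclear windows and in 13.8% of the reproducible ones. The windows around the replicate 2 summits 2152 and 2355 bp inside the gene held 0. The upstream window has 50.5% GC and is built on repeats of CTACCT. At least 4 copies of that hexamer on either strand were found in 0.153% of the pooled windows and in 0.268% of the reproducible windows. Both sequence features were chosen after the windows had been seen.

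The strong regions did not stop at fkh-6. How much of the sequence around fkh-6 the transgene holds is not in the labels. Its fragments cannot be told apart from native ones here, and any part it has in these counts was not tested. Within 20 kb of its 5' end there were 13 regions among the highest-signal 10% of the pooled list, against a mean of 0.988 and a median of 1 for all protein-coding genes. The other 9 forkhead genes had 0 to 3. Replicate 1 alone had 12 such regions and replicate 2 alone had 9, where the other forkhead genes had 0 to 2 and 0 to 4. As many as fkh-6 were found at 0.00501% of genes in the pooled list and in replicate 1, which is fkh-6 itself, and at 0.02% in replicate 2. Farther than 40 kb from fkh-6, the highest count around any gene was 8 in the pooled list, 8 in replicate 1 and 9 in replicate 2. Replicate 2 alone therefore had a gene elsewhere with as many.

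The stretch had clear ends. In the pooled list its outermost strong summits were 19.0 kb upstream and 15.2 kb downstream of the fkh-6 start, a span of 34.3 kb. The next strong regions were 70.3 kb upstream and 84.0 kb downstream. In replicate 1 the strong summits ran from 19.0 kb upstream to 11.1 kb downstream. In replicate 2 they ran from 12.8 kb upstream to 11.1 kb downstream. There were 6 strong pooled regions within 20 kb upstream and 7 within 20 kb downstream, against 0 between 20 and 40 kb on either side, where 3 weaker pooled regions lay on each. The limits of 20 kb and of the highest-signal 10% were chosen after the stretch had been seen.

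**Figure D2:**
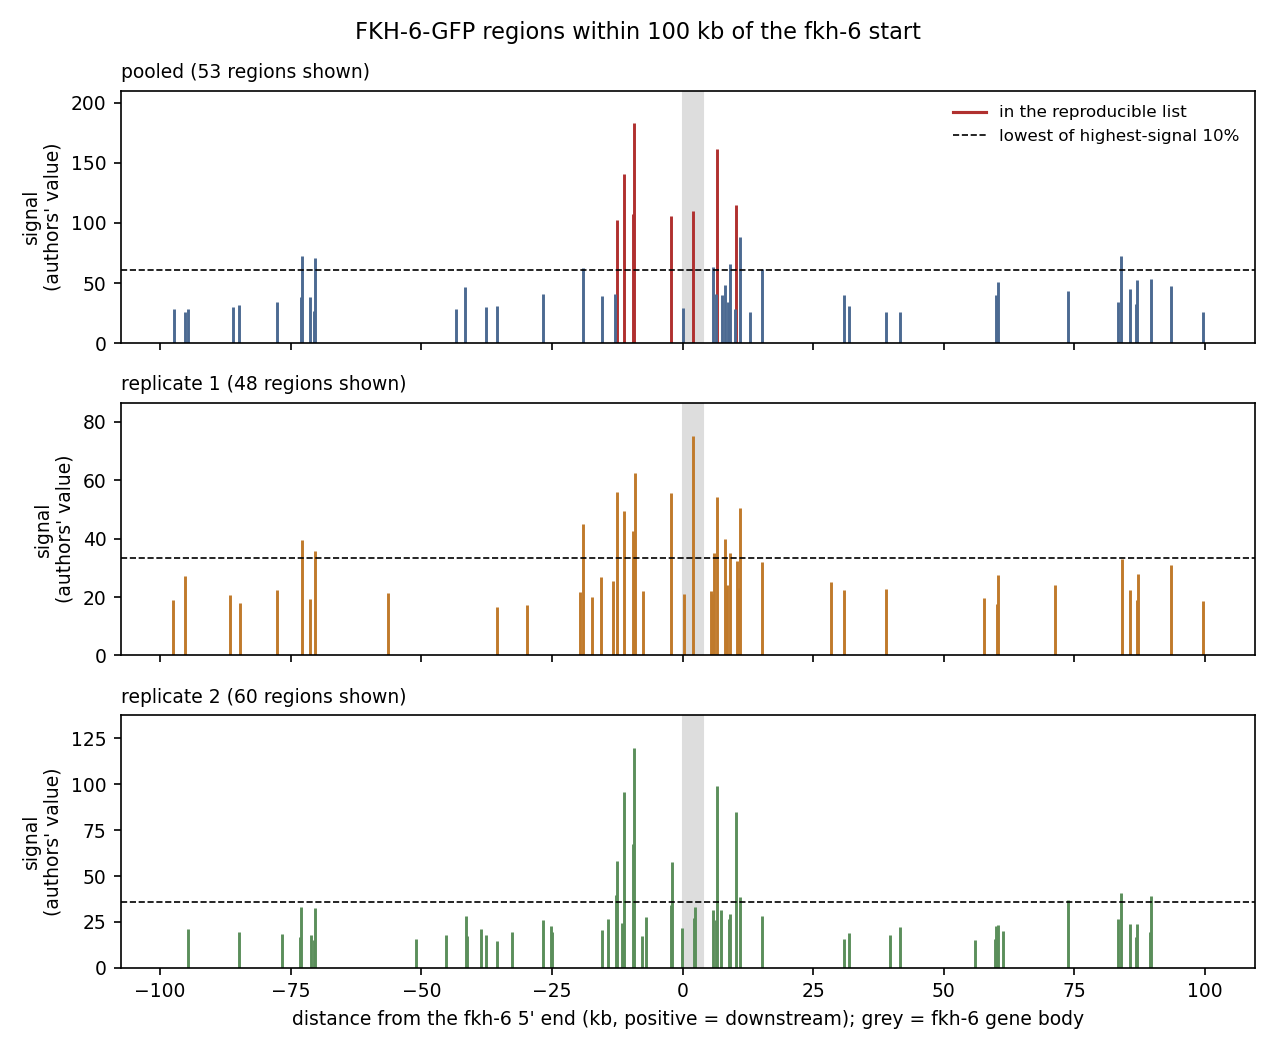
Regions within 100 kb of the fkh-6 start in the pooled list and in each replicate. The horizontal axis is the distance from the fkh-6 5' end in kb, each line is a region at its summit with the authors' signal as its height, red lines in the pooled panel are in the reproducible list, and the dashed line is the lowest signal of the highest-signal 10% of that list; the strong regions cluster within 20 kb of the gene in all 3 panels.

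Of the 8 reproducible regions in this stretch, the 2 strongest lay just upstream of neighbouring genes. The summit with a signal of 183 and rank 137 was 379 bp upstream of mlt-7, a peroxidase gene needed for moulting, and a further region 174 bp upstream of mlt-7 had a signal of 107 and rank 463. These regions upstream of mlt-7 overlapped each other. Regions in mlt-7 introns, 1675 and 2959 bp past its start, had signals of 141 and 102.5. The summit 358 bp upstream of ntl-2, which encodes a subunit of the CCR4-NOT deadenylase complex, had a signal of 161 and rank 186. The last, in coding sequence of ntl-2 and 609 bp upstream of paic-1, a purine synthesis gene, had a signal of 115 and rank 393. At 8, the count of reproducible regions within 20 kb was matched by the overlapping neighbourhoods of ntl-2, B0286.1 and mlt-7 and by no other gene, or 0.02% of genes with fkh-6 included, and the highest count farther than 40 kb away was 4. Apart from fkh-6, only fkh-7 among the 10 genes had any, with 1, where 24.1% of all genes had at least 1.

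Both replicates held all 8 of these regions in their full lists, with summits within 100 bp. Among the 767 highest-signal regions, each replicate held 6 of the 8. The pair that fell outside in replicate 2 was the pair in the fkh-6 locus itself, where its stronger upstream summit lay more than 100 bp from the pooled one. In replicate 1 the pair outside was the summit nearest to the mlt-7 start, at rank 789, and the one in ntl-2, at rank 2162. Replicate 2 ranked the strongest mlt-7 region 92, the ntl-2 promoter 145 and the ntl-2 coding region 207. Replicate 1 ranked the first of these 256 and the second 375. Among these 8, the highest signal of replicate 1 was therefore inside fkh-6, and that of replicate 2 at mlt-7.

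The promoter windows of ntl-2 and mlt-7 are shown because each holds GAGAGA or its reverse complement TCTCTC, in capitals. The windows of fkh-6, of the mlt-7 introns and of the ntl-2 coding sequence had 0 copies.
ntl-2 promoter, chrII:4376773-4376873: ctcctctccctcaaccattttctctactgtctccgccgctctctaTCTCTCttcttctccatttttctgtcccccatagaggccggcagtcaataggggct
mlt-7 promoter, farther, chrII:4392578-4392678: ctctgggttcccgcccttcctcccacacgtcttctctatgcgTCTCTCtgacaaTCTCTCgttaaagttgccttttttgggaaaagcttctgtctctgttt
mlt-7 promoter, nearer, chrII:4392783-4392883: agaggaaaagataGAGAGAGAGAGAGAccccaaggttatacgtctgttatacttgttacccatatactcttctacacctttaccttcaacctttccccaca
GAGAGA was in 3 of the 8 windows, in 21.4% of all 746 reproducible nuclear windows, in 10.8% of the 26141 pooled nuclear windows and in 8.86% of the 101 bp before protein-coding starts. Forkhead heptamers were in 2 of the 8 windows, that of the fkh-6 intron and that of the ntl-2 coding sequence.

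**Figure D3:**
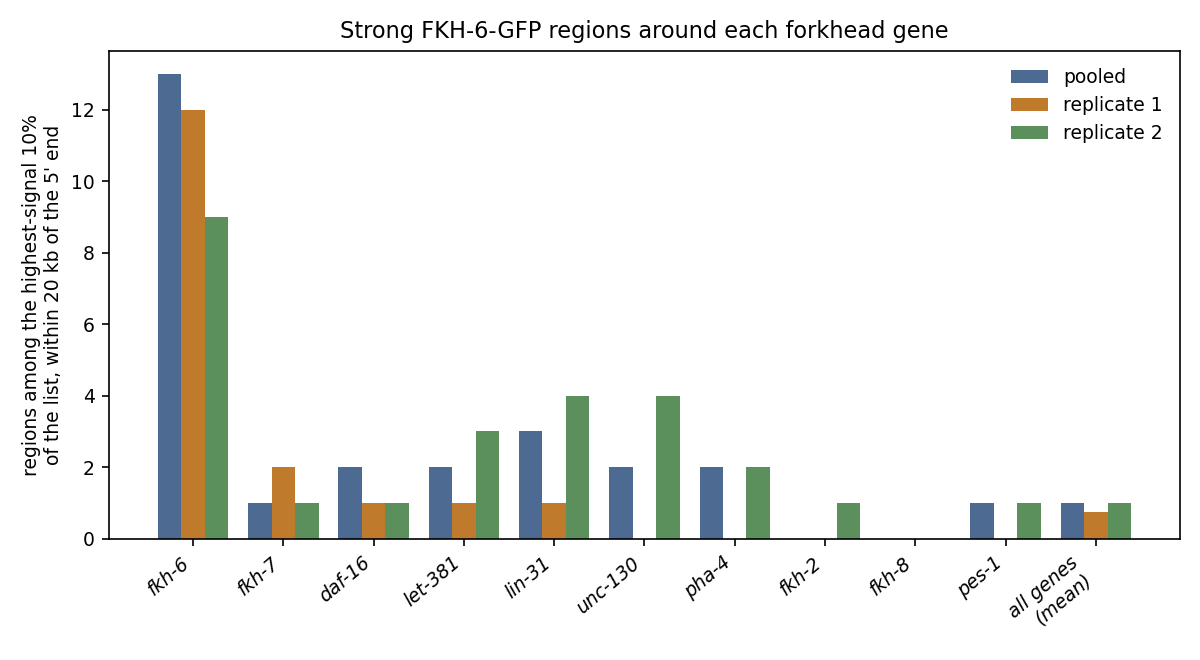
Number of regions among the highest-signal 10% of each list within 20 kb of the 5' end of each forkhead gene, with the mean over all 19973 protein-coding genes at the right. Bars are counts in the pooled list and in each replicate; fkh-6 has 13, 12 and 9, and no other of the 10 genes has more than 4.

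The gene fkh-7 (WBGene00001439) on chromosome IV, 5584684 to 5610378, held the third reproducible region of the family, close to the limit of the list. Its summit lay in an intron, 15763 bp past the start and 1260 bp from the nearest annotated fkh-7 transcript start. The nearest protein-coding gene start was that of C39H7.4, 14161 bp away. It had a pooled signal of 89.4 and rank 762 of 767, where the lowest reproducible signal was 89.1. Replicate 1 had a signal of 42.8 and rank 785 there, and replicate 2 a signal of 40.3 and rank 1750, so neither replicate held it among its own 767 strongest. The locus had 15 pooled regions in all, and 0.26% of genes had more, but it spans 30695 bp, where the median locus of all genes spans 10001 bp. Per 10 kb it had 4.89 pooled regions, against 4.23 over the 10 genes and 2.59 over all loci. At fkh-7 the 4 next regions had pooled signals of 57.9 down to 51.2.

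The fkh-7 summit is shown because it is the only reproducible region of the family outside the fkh-6 stretch; capitals mark GAGAGA.
fkh-7 intron, chrIV:5600397-5600497: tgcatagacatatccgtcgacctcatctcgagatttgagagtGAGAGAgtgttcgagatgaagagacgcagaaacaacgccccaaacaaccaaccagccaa
This window had 48.5% GC and 0 forkhead heptamers.

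The gene daf-16 (WBGene00000912) on chromosome I, 10750498 to 10776703, lay just below the reproducible limit. Its strongest region had its summit in coding sequence, 21296 bp past the gene's 5' end and 286 bp from an annotated daf-16 transcript start, with a pooled signal of 85.2 and rank 893. The nearest protein-coding gene start was that of gpx-8, 11096 bp away, and the non-coding gene R13H8.3 started 1074 bp away. Replicate 1 had a signal of 43.6 and rank 731 there, inside its 767 strongest, and replicate 2 a signal of 41.6 and rank 1568. Replicate 2 had its own strongest daf-16 region 6743 bp past the 5' end, with a signal of 48.3 and rank 963, where replicate 1 had no summit within 100 bp. That summit was 38 bp from the start of the non-coding gene R13H8.4 and 5862 bp from the nearest annotated daf-16 transcript start. The gene had 4 pooled regions among the highest-signal 10%, at 85.2, 67.4, 64.0 and 61.6, the most of the 10 genes. All 4 were inside the gene body, and the region nearest to its 5' end, 513 bp upstream, had a signal of 34.8. The region of signal 64.0 was the one at R13H8.4. That of 67.4 lay 175 bp from the start of another non-coding gene, R13H8.5. The daf-16 locus spans 31206 bp, with 2.88 pooled regions per 10 kb, against 2.59 over all loci. The shorter loci of fkh-6, unc-130 and pha-4, of 10001 to 12266 bp, had 2 strong pooled regions each.

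The gene let-381 (WBGene00002601) on chromosome I, 6320289 to 6324019, encodes a factor that acts in coelomocyte fate. Its strongest region had its summit at the far end of the gene, 3691 bp past the start in the 3' UTR, where let-381 overlaps hrpk-1. Its pooled signal was 81.3 with rank 1037. Replicate 1 gave a signal of 38.4 and rank 1144, and replicate 2 gave 39.96 and rank 1805. A region 338 bp upstream of the let-381 start had a pooled signal of 51.8. The stronger of these regions cannot be assigned to let-381 rather than hrpk-1.

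With the authors' −log10 q-value, a measure of confidence, at 2 or above, the pooled list had a region at 4 of the 10 genes, against 11.5% of all genes. These were fkh-6 with 2 regions and fkh-7, daf-16 and let-381 with 1 each. In the pooled list, 94.98% of genes had a lower highest signal than fkh-6, 91.9% than fkh-7, 90.6% than daf-16 and 89.2% than let-381. By replicate, the share below fkh-6 was 98.1% in replicate 1 and 93.8% in replicate 2. For daf-16 it was 92.3% and 90.0%, for fkh-7 91.8% and 83.6%, and for let-381 88.4% and 83.2%. Both replicates put fkh-6 first, then daf-16, with fkh-7 above let-381, whereas the pooled list put fkh-7 above daf-16. The values of fkh-6 include any fragments from the transgene, which cannot be told apart from native ones. In replicate 2, pha-4 and lin-31, with 87.5% of genes below each, also stood above fkh-7.

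**Figure D4:**
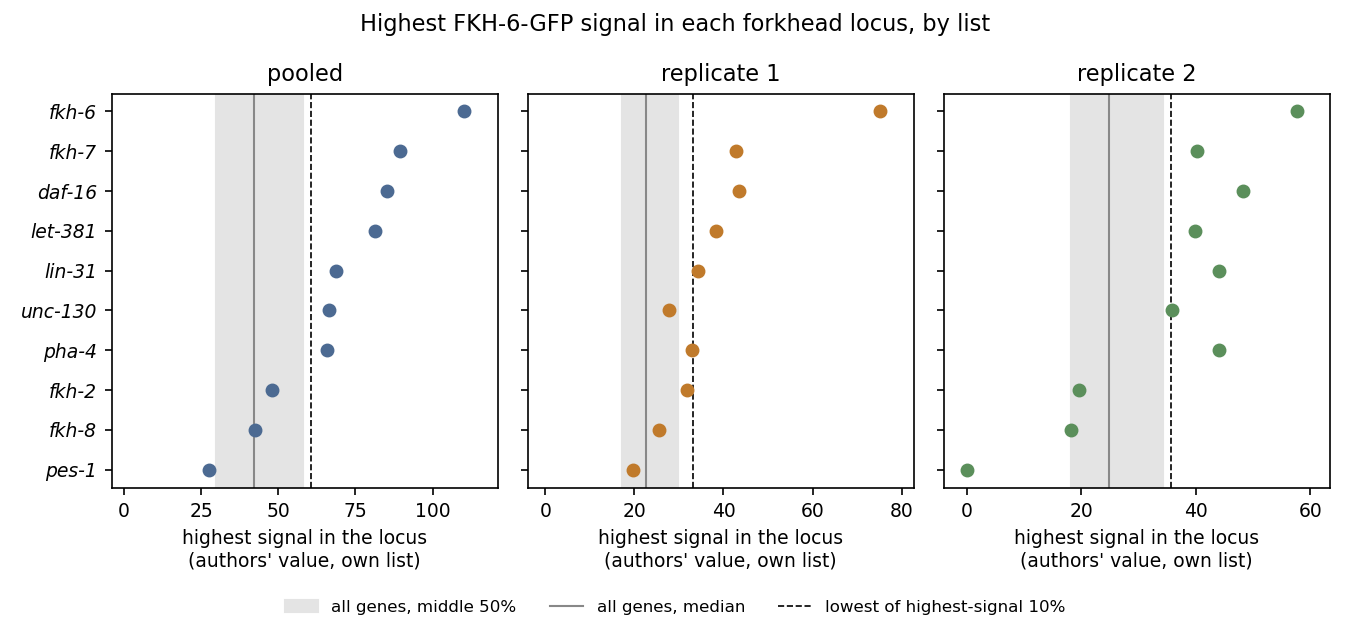
Highest signal in each forkhead locus in the pooled list and in each replicate. Points are the authors' signal values, grey bands and lines are the middle 50% and median over all protein-coding genes, and the dashed line is the lowest signal of the highest-signal 10% of the list; fkh-6 is highest in all 3, and pes-1, with no region in replicate 2, is drawn at 0 there.

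At lin-31, unc-130 and pha-4 the highest pooled signal was between 65.7 and 68.8, just inside the highest-signal 10%. At lin-31 (WBGene00003017), a winged-helix gene of vulval fate, the summit lay 30 bp upstream of the start with a pooled signal of 68.8 and rank 1730. Replicate 2 gave it a signal of 44.1 and rank 1275, and replicate 1 gave 23.6 and rank 6774. Replicate 1 had its strongest lin-31 region elsewhere, 1851 bp upstream, with a signal of 34.2 and rank 1747. The region at the lin-31 start was thus among the highest-signal 10% in replicate 2 and not in replicate 1.

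At unc-130 (WBGene00006853), a FoxD gene known for cell and axon migration, the strongest regions lay past the gene, 2885 and 4958 bp beyond the start, with pooled signals of 66.6 and 61.3. The second of these summits was 138 bp from the start of the non-coding gene C47G2.19. Within 100 bp of the first of these summits, replicate 1 had a signal of 27.5 and replicate 2 one of 32.8. Neither value was among the highest-signal 10% of its list. The pooled region nearest to the unc-130 start, 1223 bp inside the gene in an intron, had a signal of 47.9, and there replicate 2 had its strongest unc-130 region, with a signal of 35.9. Replicate 2 also had a nearer region, 484 bp upstream of the start, with a signal of 24.6 and rank 8499.

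At pha-4 (WBGene00004013) the strongest pooled summit lay 261 bp upstream of the start, with a signal of 65.7 and rank 2003. It was also 5 bp from the start of the non-coding RNA gene F38A6.6. Replicate 2 had a signal of 38.4 and rank 2058 there, and replicate 1 had no summit within 100 bp but its strongest pha-4 region 74 bp upstream of the start, with a signal of 32.9 and rank 2052. Regions inside pha-4, 2106 and 3703 bp past its 5' end, had pooled signals of 62.8 and 58.2. They lay 333 and 155 bp from annotated starts of its other transcripts. The summit at 3703 bp was nearer to the start of the non-coding gene F38A6.9, at 18 bp. The region at 2106 bp was the strongest pha-4 region of replicate 2, with a signal of 44.0 and rank 1278. In replicate 1 it was one of the weaker, with a signal of 16.6 and rank 17864. The replicates thus put their strongest pha-4 region at different places.
pha-4 promoter, chrV:20752741-20752841: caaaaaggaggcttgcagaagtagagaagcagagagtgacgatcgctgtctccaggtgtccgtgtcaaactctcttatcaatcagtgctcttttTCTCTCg
Capitals in this promoter window mark the reverse complement of GAGAGA, and it held 0 forkhead heptamers.

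The remaining genes had no region among the highest-signal 10% of the pooled list or of either replicate. At fkh-2 (WBGene00001434) the strongest pooled region lay 16 bp upstream of the start, with a signal of 48.1 and rank 5490. The best fkh-2 region had a signal of 31.7 in replicate 1 and 19.7 in replicate 2. At fkh-8 (WBGene00001440), which acts in ciliated sensory neurons, the strongest pooled region had a signal of 42.4 and lay 3606 bp past the start, in an exon of the long non-coding RNA gene F40H3.6. At pes-1 (WBGene00003976), an embryonic gene known to overlap in function with fkh-2, the single pooled region had a signal of 27.6 and rank 21644, in an intron. Replicate 1 had 2 regions at pes-1, the stronger with a signal of 19.7, and replicate 2 had 0. Of all genes, 20.8% had a lower highest pooled signal than pes-1, 50.25% than fkh-8 and 61.0% than fkh-2. For fkh-2 the share was 79.1% in replicate 1 and 30.8% in replicate 2. For fkh-8 it was 61.4% and 25.2%.

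The 5 other forkhead genes were set beside these. None of fkh-3, fkh-4, fkh-5, fkh-9 and fkh-10 had a reproducible region, and their highest pooled signal had a median of 40.3, with fkh-4 at 0, against 42.2 for all genes. The strongest were at fkh-10, with a pooled signal of 76.1 and rank 1267 at a summit 3108 bp past the start and 141 bp upstream of tag-72, and at fkh-9, with 71.1 and rank 1563. Replicate 2 ranked the fkh-10 region 757, inside its 767 strongest. Replicate 1 ranked it 4224. The gene fkh-4 had no region in any list.

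Of the 61 pooled regions of the 10 loci, 35 had their summit inside the gene, 21 upstream and 5 past its 3' end. The long genes daf-16 and fkh-7 held 20 of those inside and 4 of those upstream. The other 8 loci had 15 of their 37 regions inside, or 40.5%, against 30.2% over all protein-coding loci. They had 17 upstream, or 45.9%, against 48.1%, so without daf-16 and fkh-7 more regions lay upstream than inside. Introns held 24, intergenic sequence 23 and coding exons 9. All 3 reproducible regions were in introns. A pooled region lay within 500 bp of the 5' end in 6 of the 10 genes, against 29.6% of all genes. A region of the highest-signal 10% lay that close in 2, lin-31 and pha-4, against 5.1%. A reproducible region lay that close in 0, against 2.09%.

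Recovery in the replicates was compared for the pooled regions of the 10 loci and all others. Of the 61, 21 had a summit within 100 bp in both replicates, or 34.4% (95% Wilson interval 23.8 to 46.9), against 26.3% of all 26141 nuclear pooled regions. Replicate 1 held 47.5% of them and replicate 2 held 75.4%, against 48.4% and 61.8% of all. The pooled list was made from the same replicates, so this recovery is not independent evidence.

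Forkhead sites were counted in the 101 bp around each summit. The site GTAAACA was in 0 of 61 pooled windows of the 10 loci, in 1.03% of all pooled nuclear windows, in 1.07% of reproducible windows and in 1.6% of the 101 bp before protein-coding starts. ATAAACA was in 3 of 61, or 4.92%, against 1.65% of all pooled windows. The core TAAACA was in 4 of 61, or 6.56%, against 5.23%. The wider set has 8 heptamers, GTAAACA and GTAAATA and ATAAACA and ATAAATA and GCAAACA and GCAAATA and ACAAACA and ACAAATA. Any of these was in 9 of 61, or 14.8%, against 14.4% of all pooled windows, 13.8% of reproducible windows and 23.6% of the windows before starts. GAGAGA was in 10 of 61, or 16.4%, against 10.8%. Both strands were searched, GTAAACA and ATAAACA each contain TAAACA, and the mean GC content was 44.4% in the 61 windows, 42.6% in all pooled windows, 50.3% in reproducible windows and 33.2% before starts. A match or its lack describes only these letters in these windows.

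Genes known to act with members of the family were counted from 4 lists. Of 12 genes of gonad development, 2 had a reproducible region, against 8.16% of all genes, ckb-3 and sys-1. The choline kinase gene ckb-3, whose promoter is used to mark somatic gonad precursors, had summits 1194 and 1401 bp upstream with signals of 104 and 101.6. The regions overlapped each other, and both summits lay over ckb-2 and the non-coding gene srpr-1.2. The second summit was 16 bp from the srpr-1.2 start. The regions in the locus of sys-1, a beta-catenin gene, lay over 4 kb from its start and nearer to eif-3.C and his-67. Of 11 insulin pathway genes around daf-16, 1 had a region, ftt-2, a 14-3-3 gene, at 586 bp upstream with a signal of 116 and 16 bp from the non-coding gene F52D10.7. Of 8 pharynx genes around pha-4, 1 had a region, tbx-2, at 128 bp upstream with a signal of 93.2. Of 10 vulval signalling genes around lin-31, 2 had a region, lin-45, the Raf kinase gene, at 691 bp past its start with a signal of 102.1, and mpk-1, the MAP kinase gene, at 4376 bp past its start with a signal of 112. Replicate 1 had a summit within 100 bp of each of these partner regions. Replicate 2 had none within 200 bp of the ftt-2 region or of the farther ckb-3 region. At mpk-1 its nearest summit was 161 bp away. Over the 4 lists 6 of 41 genes had a reproducible region, or 14.6%, and 16 had a strong pooled region, or 39.0%, against 22.5% of all genes. Their highest pooled signal had a median of 50.9, against 42.2 for all genes.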

How the data were processed

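The data were ChIP-seq region lists of FKH-6-GFP from 2 replicates. The authors called regions on each replicate and on both pooled, and kept a reproducible part of the pooled list by irreproducible discovery rate (IDR), per the labels of the deposited lists. The pooled and replicate lists are the input to that step and hold background by their deposited names. No source used here gives the caller, aligner or threshold. The deposited signal, a score per region, and the deposited −log10 q-value are the authors'. The deposited summit offset gave the summit. The 4 lists used are on ce11, per the labels. The 4 lists on ce10 were not used, as the annotation at hand is for ce11.

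Genes came from Ensembl release 115 for WBcel235 and sequence from RefSeq's WBcel235. Loci, distances, counts, ranks and motif matches were computed with Python 3.11.15, NumPy 2.4.6, pandas 2.3.3 and SciPy 1.17.1, and drawn with Matplotlib 3.10.9, after being tested on simulated data. Summits within 100 bp matched. Intervals (Wilson, 95%) reflect only counting error. Depth is unknown. There were 0 columns of other samples.

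With 1 group and no control analysed, no test was made. The genes and lists were chosen with earlier results of these data known. Every forkhead gene was named, with the genes nearest to the fkh-6 regions and to the strongest region of each locus, and members of the 4 partner lists with a reproducible region. Non-coding and overlapping genes at a summit, tag-72, eif-3.C and his-67 were named after their values were seen, the split of loci by gene length was also added then, and the heptamers and CTACCT were added after the windows were seen.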

Additional observations from a re-analysis of the deposited data

How the results depend on the processing

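Under the settings tried, fkh-6 kept a region except in the stronger part of the list. Without either replicate means with 1 left out, so that the 767 strongest regions of the other stood in for the reproducible list. The number of forkhead genes with such a region was 1 with 5 kb upstream only (fkh-6), 4 with pooled regions of −log10 q-value 2 and above, 0 in the stronger part of the reproducible list, split at its median signal, and 1 to 2 without either replicate, where fkh-6 was present each time, joined by daf-16 in replicate 1. The regions at fkh-6 numbered 1 within 2 kb, in the gene body or upstream only, 5 within 10 kb, 0 in the stronger part of the list, and 1 to 2 without either replicate. Pooled regions at fkh-6 numbered 12 within 10 kb, 1 upstream only, and 3 to 5 in the replicates alone. The share of all genes with a reproducible region was 4.8% within 2 kb, 13.9% within 10 kb and 1.25% in gene bodies. It was 5.34% upstream only, 4.45% in the stronger part of the list, and 7.61% among 1077 genes whose locus overlaps no other. With pooled regions at that q-value limit in place of reproducible ones, the share was 11.5%. With the 767 strongest regions of 1 replicate alone it was 8.06% to 8.31%, the list length being kept the same by construction. Of the 3 reproducible regions of the family, replicate 2 had 0 among its 767 strongest within 100 bp and 1 within 200 bp. In settings added after seeing the data, the strong regions around fkh-6 numbered 7 within 10 kb, and 9 to 12 in the highest-signal 10% of 1 replicate alone. Narrower or wider windows change these counts by construction; other causes were not tested. No paired analysis was possible because there is 1 group. Depth, which is unknown, limits all counts.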
